A study of Mus musculus with 12 samples.

Results

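The matrix metalloproteinases (MMPs), the ADAMTS proteinases and the tissue inhibitors of metalloproteinases (TIMPs) were followed across 4 lines of mouse embryonic fibroblasts (MEFs). Members were taken by a rule on the gene symbol, as every gene of the count table whose symbol is *Mmp* or *Adamts* with a number or is one of *Timp1* to *Timp4*. This gave 46 of 24453 genes, namely 23 MMP, 19 ADAMTS and 4 TIMP genes. Of the 46, 30 passed the filter on low counts and were tested (13 MMP, 14 ADAMTS and 3 TIMP genes), 11 others had at least 1 count in a library, and 5 (*Mmp7*, *Mmp8*, *Mmp12*, *Mmp20* and *Adamts19*) were at 0 in all 12 libraries. Together the members held 0.158% to 0.223% of the counts of a library.

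The study asked what loss of polynucleotide phosphorylase (PNPase, encoded by *Pnpt1*), an RNA-processing enzyme of mitochondria, does to gene expression. All 4 lines descend from TM6, C57BL6/J MEFs with floxed *Pnpt1* alleles (labelled neo-flox/neo-flox) that were immortalized with the SV-40 large T antigen, and all were grown with 50 µg/mL uridine. TM6 itself is the control. The rho0 line, which keeps *Pnpt1* and has no mitochondrial DNA, is a colony grown from 1 cell after 3 weeks of TM6 culture with 750 ng/mL ditercalinium. PKO-1 and PKO-6 are 2 clones, each grown from 1 cell after an adenovirus brought Cre recombinase into TM6 and removed exon 2 of *Pnpt1*. The study reports that PKO-1 and PKO-6, like rho0, had also lost mitochondrial DNA and did not respire. Each line was cultured 3 times. Since rho0, PKO-1 and PKO-6 are 1 clone each, a clone's own differences cannot be told apart from those of its treatment. Where 4 lines are fitted, the p-values measure the spread between cultures of a line. Where PKO-1 and PKO-6 are pooled in a fit of 3 groups, the spread also holds the distance between these 2 clones, for rho0 against TM6 too. That fit treats all PKO cultures as independent although they come from 2 clones, so its p-values do not take the clone as the unit.

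MMPs are zinc-dependent endopeptidases that are made as inactive proenzymes and cleave collagens, proteoglycans, glycoproteins and other proteins outside the cell. ADAMTS proteinases are secreted zinc enzymes with thrombospondin motifs, some of which cut the core proteins of proteoglycans such as versican and aggrecan while others remove the N-propeptides of fibrillar procollagens. TIMPs bind the active site of these enzymes, and fibroblasts are a major source of many members of these families in connective tissue.

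Total counts were 47164860 to 67991378 per library, and the 45S ribosomal precursor RNA *Rn45s* took 12.2% to 19.6% of them. Normalized counts are counts scaled by library size and TMM factor to the mean library. *Pnpt1* was at 2832, 3242 and 3319.5 normalized counts in the TM6 libraries, 5051, 5251 and 5509.5 in rho0, 1254, 1191 and 1276 in PKO-1 and 1897, 1720.4 and 2214 in PKO-6. It fell in PKO against TM6 (log2 fold change -0.98 ± 0.18 (SE), adjusted p = 8.36e-04), with the RNA left in both clones counted over the whole gene, so that the loss of exon 2 alone is not what these counts measure. The 10 fibroblast markers summed to 514191 to 564186 normalized counts in TM6, 446234 to 497978 in rho0, 579817 to 629303 in PKO-1 and 348121 to 387797 in PKO-6, with *Lum* at 0 in rho0 and *Thy1* at 0 in PKO-6. Of 9 tested, 7 were called higher in PKO-1 than in PKO-6 (beside 11.5% of all tested genes), among them *Col3a1* (means of 7011 and 329) and *Pdgfra* (3225 and 415). The 7 markers of macrophages and leukocytes summed to 262 to 617 normalized counts, with *Adgre1* at 0 in all libraries. The 7 chondrocyte and bone markers, mostly *Runx2* and *Sox9*, summed to 4792 to 5071 in TM6, 2179 to 2474 in rho0, 4150 to 4533 in PKO-1 and 2734 to 2785 in PKO-6. The 5 epithelial markers summed to 107 to 842, and single members went different ways between the clones: *Krt18* averaged 816 in PKO-1 and 8.001 in PKO-6, and *Epcam* 1.46 and 88.0. The 4 endothelial markers, mostly *Kdr*, summed to 20.3 to 177 and were highest in PKO-6. The part of these markers in the results was not tested. In bulk RNA, fewer cells expressing a gene and less RNA per cell cannot be told apart.

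Compared per transcript length, as TPM, the share of transcript molecules after correction for length, summed over a gene's transcripts, inhibitors and a membrane-bound MMP were the most abundant members. *Timp2* had the highest mean level of all members in each line, at 278 ± 9.58 TPM in TM6 (mean ± SD, n = 3), 249 ± 2.17 in rho0, 397 ± 18.6 in PKO-1 and 304 ± 13.1 in PKO-6. *Mmp14*, the membrane type 1 MMP, was the most abundant proteinase in each line, between 115 ± 2.59 TPM in rho0 and 166 ± 1.61 TPM in TM6. In TM6 the next proteinases in order of level were *Adamts1* at 92.0 ± 4.34, *Adamts5* at 52.8 ± 2.26, *Mmp11* at 23.2 ± 1.36 and *Mmp2* at 15.6 ± 0.919 TPM. The order differed in PKO-6, where *Mmp11* at 44.2 ± 1.11 TPM stood above *Adamts1* at 29.7 ± 1.61, *Mmp19* at 13.5 ± 1.49 and *Adamts5* at 7.43 ± 0.451 TPM.

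**Figure D1:**
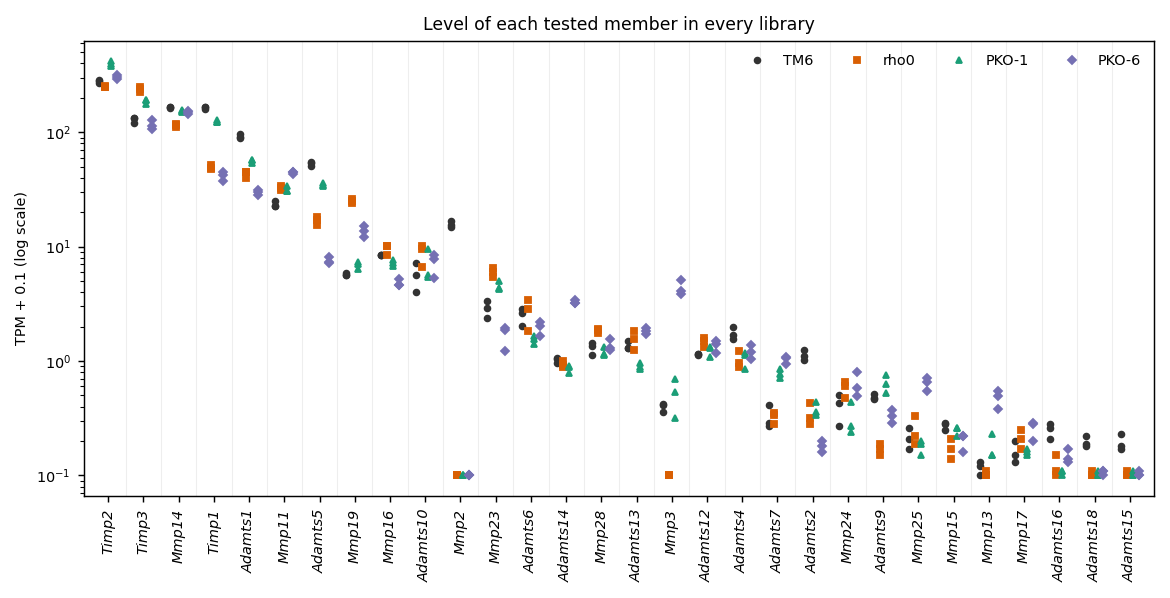
Level of the 30 tested members in every library, as TPM plus 0.1 on a log scale, ordered by the mean over the 4 lines; each point is 1 of 3 cultures of a line and points at 0.1 are libraries with 0 TPM. *Timp2*, *Timp3*, *Mmp14* and *Timp1* lead the order, *Mmp2* is above 0 only in TM6, and the lines lie far apart in *Adamts5*, *Mmp19* and *Mmp3*.

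Summed over each family, the levels moved apart. The 19 ADAMTS genes together had 160 ± 4.41 TPM in TM6, 76.5 ± 7.28 in rho0, 104 ± 4.79 in PKO-1 and 54.7 ± 4.01 in PKO-6, so that the ranges of the 4 lines did not overlap and TM6 was highest. The 23 MMP genes together stayed between 190 ± 2.57 TPM in rho0 and 224 ± 3.95 TPM in TM6. The 4 TIMP genes summed to 572 ± 11.7 TPM in TM6, 537 ± 9.21 in rho0, 710 ± 27.1 in PKO-1 and 461 ± 16.6 in PKO-6, with PKO-1 highest and PKO-6 lowest. These sums are descriptions without a test, and a few abundant genes carry each of them.

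The quasi-likelihood test of edgeR was run on all 14026 genes that passed the filter, and a gene was called at a Benjamini-Hochberg adjusted p below 0.01 with an absolute log2 fold change above 0.5. In rho0 against TM6, 8 of the 30 tested members were called (26.7%, beside 29.3% of all tested genes), with 2 higher (beside 13.7%) and 6 lower (beside 15.6%). In PKO, both clones pooled, against TM6, 7 members were called (23.3%, beside 25.7% of all tested genes), with 2 higher (beside 13.5%) and 5 lower (beside 12.2%). Neither total stood above the share of all tested genes. *Mmp2*, *Adamts15* and *Adamts18*, called lower in both, passed the filter on low counts only through the TM6 libraries. Against TM6 they could therefore be called only as lower. PKO against rho0 gave 6 calls (20%, beside 10.7%), of which 5 were higher in PKO (beside 6.33%) and 1 was lower (beside 4.36%). This count rested on single libraries: it was 1 (3.12%, beside 6.01%) without rho0 replicate 2 and 2 (6.25%, beside 5.92%) without rho0 replicate 3, and it was 3 (10%, beside 7.82%) with the replicate number as a block and 3 (11.5%, beside 8.05%) with only the compared lines fitted. Between the clones, PKO-1 against PKO-6, 15 members were called (50%, beside 29.1%), with 8 higher in PKO-1 (beside 11.5%) and 7 lower (beside 17.6%).

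Pooling the clones counts the distance between them as spread, and the common biological coefficient of variation was 0.248 in the fit of 3 groups and 0.0837 in a fit of 4 separate lines. In the fit of 4 lines, 16 of 30 members were called in rho0 against TM6 (53.3%, beside 42.1% of all tested genes), 15 in PKO-1 against TM6 (50%, beside 34.3%) and 19 in PKO-6 against TM6 (63.3%, beside 41.3%). The median absolute log2 fold change of the tested members was 0.92 in rho0 against TM6 (0.49 over all tested genes), 0.83 in PKO against TM6 (0.39), 0.57 in PKO against rho0 (0.30) and 0.95 between the clones (0.34). All comparisons with TM6 share the TM6 libraries. Results come from the fit of 3 groups, and from the fit of 4 lines for the difference between clones or where 1 clone is named.

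**Figure D2:**
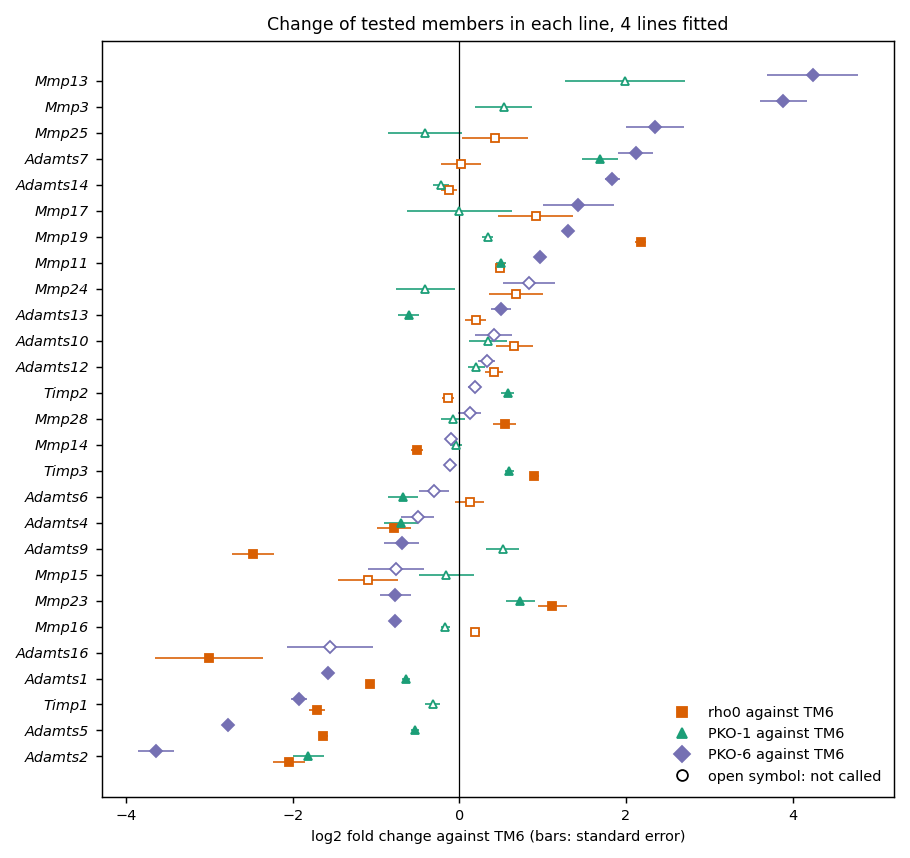
Log2 fold change against TM6 of tested members in rho0, PKO-1 and PKO-6 from the fit of 4 lines, with standard errors; filled symbols are called, open symbols are not, and lines with 3 or fewer counts in all, such as those of *Mmp2*, are left out. *Adamts2*, *Adamts5* and *Adamts1* lie left of 0 in all 3 lines, while *Mmp23* and *Adamts13* lie on opposite sides in PKO-1 and PKO-6.

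Gelatinase A, *Mmp2*, which degrades gelatin and basement membrane collagen IV, was the member with the widest difference. The TM6 libraries had 1574, 1479.8 and 1404 normalized counts, and there were 0 counts in each of the 9 libraries of rho0, PKO-1 and PKO-6. Against a floor of 3 counts per library it was at least 465-fold lower in rho0, 452-fold lower in PKO-1 and 526-fold lower in PKO-6, and it was called in both rho0 (adjusted p = 1.22e-05) and PKO (adjusted p = 3.53e-06) against TM6. Gelatinase B, *Mmp9*, which has the same class of substrates, was not tested and had at most 3.11 ± 2.41 normalized counts (TM6).

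*Mmp2* lies on chromosome 8 of mm10 (GRCm38) at 92827297 to 92853421, plus strand, and its listed neighbours were examined after the values of *Mmp2* had been seen. *Lpcat2*, a lysophospholipid acyltransferase gene and the next gene downstream, was at 37.9 ± 3.81 normalized counts in the TM6 libraries and, like *Mmp2*, at 0 in all 9 others. *Irx3*, which encodes a homeodomain transcription factor, was 4 genes upstream and went from 63.6 ± 5.58 in TM6 to at most 0.596 ± 0.522 in the other lines. *Irx5*, of the same family and between them, kept counts in every line, at 488 ± 22.7 in TM6, 137 ± 25.1 in rho0, 133 ± 10.1 in PKO-1 and 161 ± 3.82 in PKO-6. *Slc6a2*, 3 genes downstream, was near 0 in all lines, at 0.651 ± 0.564 in TM6, 1.49 ± 2.58 in rho0, 1.73 ± 2.15 in PKO-1 and 1.26 ± 0.594 in PKO-6. On either side of it, *Capns2* and *Ces1a* had 1.49 ± 1.78 and 1.85 ± 0.829 in TM6 and 0 in all 9 other libraries. None of these was tested. *Ces1g*, a carboxylesterase gene 10 genes downstream, was at 53.3 ± 8.45 in TM6 and at 1.11 ± 1.11 in rho0, 1.49 ± 0.769 in PKO-1 and 5.48 ± 1.76 in PKO-6. Farther upstream, *Fto*, *Rpgrip1l*, *Aktip* and *Rbl2* each had a mean of at least 827 normalized counts in every line. Against TM6, *Rbl2* was called lower in rho0 (log2 fold change -1.01) and *Fto* lower in PKO (log2 fold change -0.64). *Rpgrip1l* and *Aktip* were called in neither. The files hold RNA only, and whether DNA or its regulation differs at this locus was not tested.

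**Figure D3:**
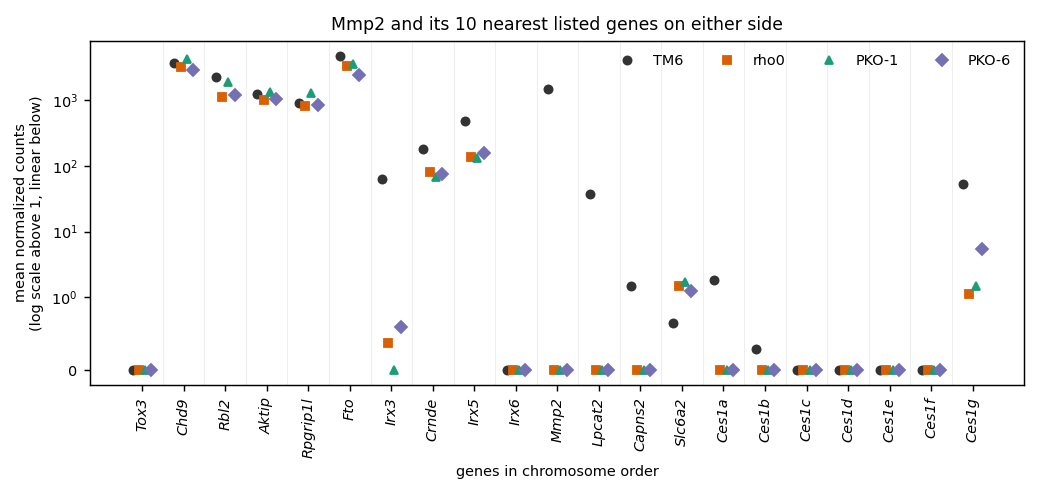
Mean normalized counts of *Mmp2* and the 10 nearest listed genes on either side in each line, in chromosome order, on a scale that is linear below 1 and logarithmic above it. *Mmp2* and *Lpcat2* are at 0 in rho0, PKO-1 and PKO-6, *Irx3* is close to 0 there, and *Irx5*, *Crnde* and the genes from *Chd9* to *Fto* keep counts in all 4 lines.

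The collagenases and stromelysins form most of the MMP cluster on chromosome 9, where 10 members lie within 427.1 kb from *Mmp13* to *Mmp7*. Stromelysin 1, *Mmp3*, which cleaves proteoglycans and glycoproteins and activates other proMMPs, was at 16.4, 17.2 and 13.96 normalized counts in TM6, 0 in all rho0 libraries, 33.3, 12.8 and 23.8 in PKO-1 and 214, 294 and 206 in PKO-6. All PKO-6 libraries lay above all others, and those of TM6 and PKO-1 overlapped. *Mmp3* was called in PKO against rho0 (adjusted p = 0.00484), at least 7.30-fold higher in PKO-1 and 74.5-fold higher in PKO-6 by the floor of 3 counts per library, and PKO-1 lay below PKO-6 (log2 fold change -3.36 ± 0.27 (SE), adjusted p = 6.46e-07). The call against rho0 was lost without any 1 rho0 library (adjusted p = 0.0151 to 0.019), with the replicate number as a block (adjusted p = 0.016) and with only the compared lines fitted (adjusted p = 0.0164). Against TM6 it was higher in PKO-6 (log2 fold change 3.89 ± 0.28 (SE), adjusted p = 1.31e-07) and was not called in PKO-1 (adjusted p = 0.19), and with the clones pooled it was not called (adjusted p = 0.0407).

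Collagenase 3, *Mmp13*, which cuts fibrillar collagen, showed the same order at lower counts, with 2.59, 1.91 and 0 normalized counts in TM6, 0, 0 and 1.12 in rho0, 4.76, 4.26 and 10.3 in PKO-1 and 24.6, 35.2 and 35.9 in PKO-6. Its 101 counts in PKO-6 against 1 in rho0 give a ratio of 88.9 (95% exact counting interval 15.6 to 3544), and the 18 counts in PKO-1 give 18.6 (2.93 to 773). *Mmp13* passed the filter on low counts only because of the PKO-6 libraries, where it was highest. The difference between the clones was called (log2 fold change -2.26 ± 0.44 (SE), adjusted p = 5.04e-04), as was PKO against rho0 (adjusted p = 0.00771), though that call was lost in 10 of 21 alternatives, 8 of them fits without 1 library and 1 the fit with the replicate number as a block (adjusted p = 0.0212). *Mmp10*, stromelysin 2, was not tested; it had 6.55, 17.6 and 9.70 normalized counts in PKO-6 and 0 in the 9 other libraries, which is at least 3.43-fold higher than in PKO-1 and 4.01-fold higher than in TM6. In the other 7 genes of the cluster no library had more than 3 counts. The nearest listed genes outside the cluster, *Dync2h1* and *Dcun1d5* before it and *Tmem123*, *Birc2* and *Birc3* after it, also had their highest means in PKO-6, whereas the next ones upstream, *Ddi1*, *Pdgfd* and *Casp12*, had theirs in TM6. Beyond these, *Casp4* averaged 80.8 normalized counts in PKO-6, 10.6 in TM6, 1.02 in rho0 and 1.73 in PKO-1. *Casp1*, not tested, averaged 3.84 in PKO-6 and 0 in the other lines. Over the 776 tested genes of chromosome 9 the median log2 fold change of PKO-1 against PKO-6 was -0.37, beside -0.012 over all tested genes. *Birc3*, an inhibitor of apoptosis gene on its far side, had 397 ± 27.7 normalized counts in TM6, 239 ± 3.59 in rho0, 81.0 ± 8.002 in PKO-1 and 675 ± 8.99 in PKO-6, and these neighbours too were chosen after values had been seen. The leukocyte markers, of which 3 of 7 reached 10 normalized counts in PKO-6, summed to 507 to 617 there and 492 to 506 in PKO-1, but not all of them moved alike. *Lyz2* averaged 50.8 normalized counts in PKO-6 and at most 0.355 in the other lines, *Cd68* 186 in PKO-6 and 95.6 in PKO-1 (both called between the clones), and *Cd14* 318 and 397, while *Ptprc* and *Itgam* stayed below 2 on average in every line. Their part in the levels of *Mmp3*, *Mmp13* and *Mmp25* was not tested.

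**Figure D4:**
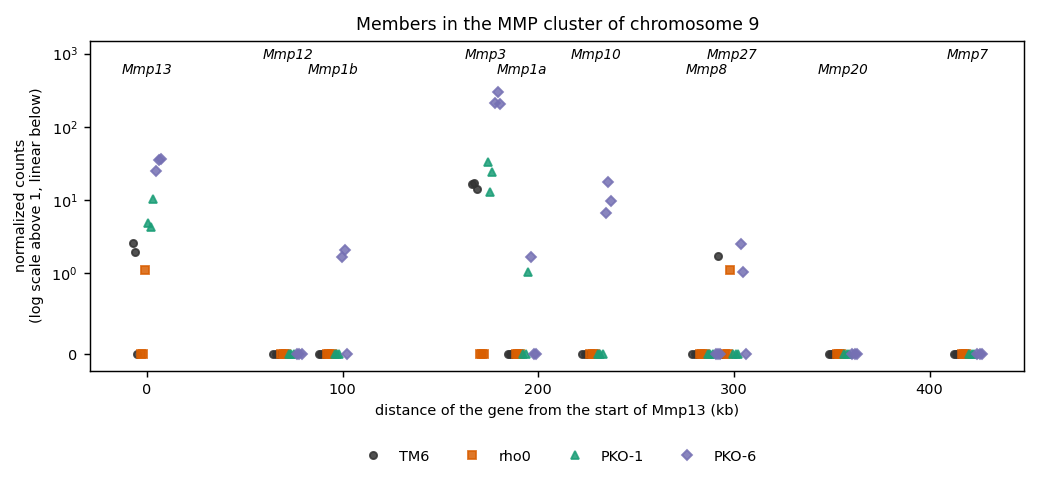
Normalized counts of the 10 members of the chromosome 9 cluster in every library, against the distance of the gene in kb from the start of *Mmp13* (points of the 4 lines are spread sideways), on a scale that is linear below 1 and logarithmic above it. *Mmp13*, *Mmp3* and *Mmp10* are highest in PKO-6, and the other 7 genes stay near 0.

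The 3 genes of the cluster that were highest in PKO-6 share a motif in their promoters with most of the silent ones. The AP-1 motif TGANTCA, which reads the same on both strands, was searched in RefSeq promoters of GRCm38.p6 (250 bases before to 50 after the start). Entries existed for 32 of the 46 members. The motif was in 8 of the 10 genes of the cluster (*Mmp1a*, *Mmp1b*, *Mmp3*, *Mmp7*, *Mmp10*, *Mmp12*, *Mmp13* and *Mmp20*) and in no other member with an entry, while 8.97% of all genes with an entry and 6.58% of tested genes held it in at least 1 promoter. *Mmp7* and *Mmp12* have 2 entries each and held it in 1. The 150 bases before the start are shown for the 3 genes with counts and, for comparison, for the interstitial collagenase gene *Mmp1a*, which had at most 2 counts in a library. Capitals mark the motif, all 4 genes are on the plus strand, and the sequences run 5′ to 3′.
Mmp3, chr9:7445672-7445821: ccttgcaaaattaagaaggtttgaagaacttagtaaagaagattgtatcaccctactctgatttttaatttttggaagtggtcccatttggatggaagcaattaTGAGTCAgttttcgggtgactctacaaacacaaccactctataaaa
Mmp10, chr9:7502192-7502341: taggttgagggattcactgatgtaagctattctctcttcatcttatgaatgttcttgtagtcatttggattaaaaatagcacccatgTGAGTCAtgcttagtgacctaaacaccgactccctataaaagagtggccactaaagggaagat
Mmp13, chr9:7272364-7272513: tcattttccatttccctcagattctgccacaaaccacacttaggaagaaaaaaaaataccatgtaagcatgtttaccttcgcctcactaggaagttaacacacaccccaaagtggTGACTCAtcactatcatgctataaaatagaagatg
Mmp1a, chr9:7463991-7464140: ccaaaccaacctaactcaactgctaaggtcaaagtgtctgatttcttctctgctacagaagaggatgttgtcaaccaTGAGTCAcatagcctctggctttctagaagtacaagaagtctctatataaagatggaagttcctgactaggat
The motif begins 46 bases before the start of *Mmp3*, 63 before that of *Mmp10*, 35 before that of *Mmp13* and 73 before that of *Mmp1a*. A match of letters is a description and does not show that a factor binds there.

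All 6 membrane-type MMPs were tested, and 1, *Mmp14*, was called in rho0 against TM6 (beside 29.3% of all tested genes). *Mmp14*, whose product sits in the cell membrane, cuts collagen and activates proMMP2 together with TIMP2, was at 19791, 20146 and 19509 normalized counts in TM6, 15439.7, 12893 and 13460.0 in rho0, 19358, 19642 and 18826 in PKO-1 and 18247, 20042 and 17367 in PKO-6. The rho0 libraries were the lowest and overlapped with no other line. It fell in rho0 (log2 fold change -0.51 ± 0.08 (SE), adjusted p = 2.70e-04), just past the threshold of size, and was not called without TM6 replicate 2 or without rho0 replicate 2, where the log2 fold change was -0.48 at its smallest. *Mmp16*, membrane type 3, had 1023, 1132 and 1115 normalized counts in PKO-1 and 708, 719 and 718 in PKO-6, the lowest of all lines, and was higher in PKO-1 (log2 fold change 0.61 ± 0.06 (SE), adjusted p = 5.84e-07).

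The GPI-anchored *Mmp25*, known from leukocytes, stood at 74.5, 69.4 and 49.4 normalized counts in PKO-6 and at 5.95 to 25.5 in the libraries of the other lines, without overlap. PKO-1 lay below PKO-6 (log2 fold change -2.76 ± 0.37 (SE), adjusted p = 1.98e-05). *Mmp24*, known from nervous tissue, was at 20.2, 25.6 and 46.5 in PKO-1 and 68.8, 58.0 and 94.0 in PKO-6 (log2 fold change -1.24 ± 0.33 (SE), adjusted p = 0.00534), a call that was lost when either of 2 libraries of each clone was left out. The exons of *Mmp24* overlap a gene on the opposite strand, and whether counting used the strand is not stated in the sources used here. *Mmp15* and *Mmp17* had means of 8.21 to 23.5 normalized counts and were called in none of the 4 comparisons. With 4 lines fitted, *Mmp17* rose in PKO-6 against TM6 (log2 fold change 1.43 ± 0.42 (SE), adjusted p = 0.00833). That call was lost with TM6 and PKO-6 fitted by themselves (adjusted p = 0.0213, and 0.0184 with a replicate block).

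Stromelysin 3, *Mmp11*, which is activated inside the cell by furin, rose in PKO (log2 fold change 0.75 ± 0.13 (SE), adjusted p = 7.42e-04). It was at 1646, 1514 and 1501 normalized counts in TM6, 2267, 2075 and 2194 in rho0, 2139, 2195 and 2266 in PKO-1 and 3119, 3094 and 2881 in PKO-6. Every library of the 3 other lines lay above every TM6 library, and rho0 and PKO-1 overlapped. In rho0 the difference was not called (log2 fold change 0.49 ± 0.15 (SE), adjusted p = 0.0185). Most of its reads, 81.6% to 86.7% on average in each line, were assigned to 1 transcript, NM_008606.3.

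*Mmp19*, a secreted MMP of many tissues that cuts basement membrane proteins, was the member that rose most in rho0 (log2 fold change 2.18 ± 0.30 (SE), adjusted p = 1.31e-04). It was at 598, 579.9 and 576 normalized counts in TM6, 2777, 2499 and 2659.8 in rho0, 784, 708 and 733 in PKO-1 and 1493, 1359 and 1496 in PKO-6. The 4 lines were apart without overlap, in the order TM6, PKO-1, PKO-6 and rho0. It was lower in PKO than in rho0 (log2 fold change -1.27 ± 0.24 (SE), adjusted p = 0.0025), PKO-1 lay below PKO-6 (log2 fold change -0.97 ± 0.06 (SE), adjusted p = 1.59e-08), and PKO against TM6 was not called (log2 fold change 0.91 ± 0.26 (SE), adjusted p = 0.014). Its exons overlap *Tmem198b* on the opposite strand, and its reads were shared between 2 transcripts in like proportion in all lines (58.3% to 65.9% on NM_001164197.2).

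The membrane-anchored *Mmp23* changed in opposite directions in the 2 clones. It was at 131, 91.7 and 114 normalized counts in TM6, 289.6, 206 and 234 in rho0, 179.8, 180.0 and 201 in PKO-1 and 77.0, 50.8 and 68.8 in PKO-6. All PKO-1 libraries lay above TM6 (log2 fold change 0.73 ± 0.17 (SE), adjusted p = 0.00213) and all PKO-6 libraries below it (log2 fold change -0.77 ± 0.19 (SE), adjusted p = 0.00211), and the clones differed by a log2 fold change of 1.50 ± 0.18 (SE, adjusted p = 8.09e-06). *Mmp28*, epilysin, was called in none of the 4 comparisons; it was highest in rho0, at 201, 186 and 195 normalized counts against 136, 150.0 and 114 in TM6 (log2 fold change 0.55 ± 0.18 (SE), adjusted p = 0.0228), and it was called there with 4 lines fitted (log2 fold change 0.54 ± 0.14 (SE), adjusted p = 0.00329). *Mmp21* and *Mmp27* were not tested, and neither had a mean above 3.23 normalized counts in a line.

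Among the 7 ADAMTS genes whose products cut proteoglycans, 5 were tested; 3 fell in rho0 (beside 15.6% of all tested genes) and 2 fell in PKO (beside 12.2%) against TM6. *Adamts1*, which cleaves versican and aggrecan, was at 14974, 13973 and 13911 normalized counts in TM6, 6781, 6694 and 6889 in rho0, 9411, 9137 and 8890.1 in PKO-1 and 4917, 4746 and 4682 in PKO-6, without overlap between lines and with TM6 highest. It fell in rho0 (log2 fold change -1.07 ± 0.28 (SE), adjusted p = 0.00793) and in PKO (log2 fold change -1.04 ± 0.23 (SE), adjusted p = 0.00337), and PKO-1 was above PKO-6 (log2 fold change 0.94 ± 0.05 (SE), adjusted p = 1.53e-09). That call in rho0 was lost when any 1 of the 6 libraries of the compared lines was left out, and that in PKO when any 1 TM6 library was left out, while the log2 fold change stayed between -1.10 and -1.03 in those fits; with the replicate number as a block, neither was called (adjusted p = 0.0199 in rho0 and 0.0102 in PKO).

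The aggrecanase gene *Adamts5* was not called against TM6 with the clones pooled. Its normalized counts were 13046, 14378 and 14007 in TM6, 4426, 4318 and 4633 in rho0, 9591, 9626 and 9435 in PKO-1 and 1996, 2039.6 and 2011 in PKO-6, again with no overlap and the order TM6, PKO-1, rho0, PKO-6. In the fit of 3 groups neither rho0 (log2 fold change -1.63 ± 0.65 (SE), adjusted p = 0.0544) nor PKO (log2 fold change -1.26 ± 0.53 (SE), adjusted p = 0.07) was called against TM6. With 4 lines fitted, it fell in rho0 (log2 fold change -1.63 ± 0.05 (SE), adjusted p = 5.94e-12), in PKO-1 (log2 fold change -0.53 ± 0.05 (SE), adjusted p = 4.18e-07) and in PKO-6 (log2 fold change -2.78 ± 0.05 (SE), adjusted p = 6.53e-14), and PKO-1 and PKO-6 differed (log2 fold change 2.24 ± 0.05 (SE), adjusted p = 7.40e-13). *Adamts1* (85793828 to 85803113) and *Adamts5* (85858157 to 85901125) lie beside each other on the minus strand of chromosome 16 of mm10, with 1 listed gene at or near 0 counts between them. The next genes on either side with more than 100 normalized counts, *App* and *N6amt1*, were at 17564 ± 477 and 996 ± 47.8 in TM6 and at 15362 ± 74.4 and 983 ± 50.1 in PKO-6, and these too were looked up after values had been seen. The chondrocyte and bone markers had their lowest sums in rho0 and PKO-6, the lines with the least *Adamts5*, but single markers differed. Most of each sum was *Runx2*, with means of 3548 normalized counts in TM6, 2162 in rho0, 3779 in PKO-1 and 1996 in PKO-6. *Sox9* went the other way between the clones, with means of 553 in PKO-1 and 739 in PKO-6, as did *Col2a1* at low counts. Neither *Sox9* nor *Col2a1* was called between the clones. The part of these markers in the levels of *Adamts5* was not tested.

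*Adamts9*, a versican-cleaving proteinase, was lowest in rho0. It was at 70.9, 82.2 and 73.8 normalized counts in TM6, 10.7, 12.2 and 17.9 in rho0, 108, 89.5 and 127 in PKO-1 and 47.5, 57.0 and 35.9 in PKO-6, with no overlap between the lines. It fell in rho0 (log2 fold change -2.47 ± 0.47 (SE), adjusted p = 0.00113), was higher in PKO than in rho0 (log2 fold change 2.51 ± 0.44 (SE), adjusted p = 0.00149) and higher in PKO-1 than in PKO-6 (log2 fold change 1.21 ± 0.21 (SE), adjusted p = 1.67e-04). Leaving out rho0 replicate 2 took the call of PKO against rho0 away (adjusted p = 0.012). *Adamts15* had 57 counts in the TM6 libraries together and 1, 1 and 2 in rho0, PKO-1 and PKO-6, and it was called lower in both rho0 (adjusted p = 0.000461) and PKO (adjusted p = 7.62e-05). It passed the filter only through the TM6 libraries, so that it could be called only as lower. The ratio of TM6 to rho0 was 50.3 (95% exact counting interval 8.68 to 2022). *Adamts4*, the other classical aggrecanase gene, averaged 188 ± 23.9 normalized counts (TM6) and 109 ± 29.5 (rho0) and was called in none of the 4 comparisons, but with 4 lines fitted it fell in rho0 (log2 fold change -0.78 ± 0.20 (SE), adjusted p = 0.00315) and in PKO-1 (log2 fold change -0.70 ± 0.20 (SE), adjusted p = 0.00727). *Adamts8* and *Adamts20* were not tested; *Adamts8* had 18 counts in TM6 and 3, 2 and 1 in rho0, PKO-1 and PKO-6.

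The procollagen N-proteinases, which trim the N-propeptides of fibrillar procollagens, did not move as a group. *Adamts2* fell in PKO (log2 fold change -2.46 ± 0.46 (SE), adjusted p = 9.92e-04), from 265, 238 and 215 normalized counts in TM6 to 58.3, 65.0 and 80.7 in PKO-1 and 14.7, 21.8 and 21.3 in PKO-6. In rho0 it was at 47.5, 75.3 and 51.4, also below every TM6 library, with an adjusted p just over the threshold (log2 fold change -2.04 ± 0.57 (SE), adjusted p = 0.0111). The clones differed (log2 fold change 1.83 ± 0.23 (SE), adjusted p = 1.28e-05). *Adamts14* was instead highest in PKO-6, at 549, 563 and 531 normalized counts against 136, 124 and 134 in PKO-1 (log2 fold change -2.06 ± 0.09 (SE), adjusted p = 3.91e-10). In TM6 (158, 158 and 144) and rho0 (144, 131 and 147) it lay close to PKO-1, so that PKO-6 alone stood out, at a log2 fold change of 1.84 ± 0.09 (SE, adjusted p = 4.65e-10) against TM6. *Adamts3* had 14 counts in TM6 and 0 in the 9 other libraries, which is at least 1.31-fold lower in each of those lines.

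*Adamts7*, whose product degrades cartilage oligomeric matrix protein (COMP), was the ADAMTS gene that rose in PKO. It was at 51.0, 29.6 and 30.9 normalized counts in TM6, 45.5, 38.8 and 29.0 in rho0, 108, 139.5 and 114 in PKO-1 and 152, 176 and 160.0 in PKO-6. The libraries of TM6 and rho0 overlapped, and every library of both clones lay above them. It was called higher in PKO against TM6 (log2 fold change 1.92 ± 0.26 (SE), adjusted p = 1.02e-04) and against rho0 (log2 fold change 1.90 ± 0.26 (SE), adjusted p = 3.55e-04), and the clones did not differ past the threshold (log2 fold change -0.43 ± 0.19 (SE), adjusted p = 0.0656). The transcript of its substrate, *Comp*, was low, at 13.9 to 22.7 normalized counts on average in the lines.

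*Adamts13*, which cleaves von Willebrand factor, parted the clones as *Mmp23* did but with the signs exchanged. It was at 149, 131 and 131 normalized counts in TM6, 139, 178 and 154 in rho0, 88.1, 87.3 and 94.1 in PKO-1 and 209.6, 191 and 180.3 in PKO-6. It fell in PKO-1 (log2 fold change -0.61 ± 0.13 (SE), adjusted p = 8.90e-04) and rose in PKO-6 (log2 fold change 0.50 ± 0.12 (SE), adjusted p = 0.00196) against TM6, with a difference between the clones of -1.11 ± 0.13 on the log2 scale (SE, adjusted p = 4.22e-06). The rise in PKO-6 was just past the threshold of size. With TM6 and PKO-6 fitted by themselves, its log2 fold change was 0.47, with or without a replicate block, and it was not called. All of its reads were assigned to NM_001290465.1, 1 of 4 listed transcripts, in every line. *Adamts18* had 47 counts in TM6 and 1, 1 and 3 in rho0, PKO-1 and PKO-6, and it was called lower in rho0 (adjusted p = 0.000513) and PKO (adjusted p = 0.000126). Like *Adamts15*, it passed the filter only through the TM6 libraries and could be called only as lower. *Adamts6*, *Adamts10* and *Adamts12* had means of 208 to 1119.5 normalized counts and *Adamts16* of 0.700 to 23.6, and none of the 4 was called in any of the 4 comparisons. With 4 lines fitted, *Adamts16* was called lower in rho0 (adjusted p = 0.000889) and PKO-1 (adjusted p = 0.000187) and *Adamts6* lower in PKO-1 (log2 fold change -0.67 ± 0.18 (SE), adjusted p = 0.00471). *Adamts16* too passed the filter only because of the TM6 libraries, where it was highest. *Adamts17* was not tested.

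Of the inhibitors, *Timp3*, which stays bound to the matrix and also inhibits ADAMTS proteinases, rose in rho0 (log2 fold change 0.90 ± 0.22 (SE), adjusted p = 0.00509). It was at 17906, 19999 and 19752 normalized counts in TM6, 36726, 34554 and 36463 in rho0, 30019, 28644 and 28801 in PKO-1 and 17954, 17211 and 18394 in PKO-6. All rho0 libraries were above those of PKO-1, and these were above TM6 and PKO-6, which overlapped. The clones differed (log2 fold change 0.71 ± 0.06 (SE), adjusted p = 1.65e-07). Leaving out any 1 library of TM6 or rho0 took the call in rho0 away, at log2 fold changes of 0.83 to 0.93, as did the replicate number as a block (adjusted p = 0.0141).

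*Timp1*, the soluble inhibitor of most MMPs, followed *Adamts5* in its order. It was at 3694, 3899 and 3793 normalized counts in TM6, 1335, 1054 and 1097 in rho0, 3095, 3131 and 2896 in PKO-1 and 918, 1145 and 941 in PKO-6. TM6 was highest and PKO-1 next, and rho0 and PKO-6 overlapped. Neither rho0 (log2 fold change -1.71 ± 0.49 (SE), adjusted p = 0.0121) nor PKO (log2 fold change -0.91 ± 0.40 (SE), adjusted p = 0.078) was called against TM6 in the fit of 3 groups, while the clones differed (log2 fold change 1.60 ± 0.09 (SE), adjusted p = 4.97e-09). With 4 lines fitted, it fell in rho0 (log2 fold change -1.71 ± 0.09 (SE), adjusted p = 1.61e-09) and in PKO-6 (log2 fold change -1.92 ± 0.09 (SE), adjusted p = 4.12e-10). *Timp1* lies on the X chromosome, where the median log2 fold change of 459 tested genes was -0.75 in rho0 and -0.78 in PKO against TM6 (0.02 and 0.03 over all tested genes) and 0.19 between the clones. With the chromosome medians taken off, the log2 fold change of *Timp1* was -0.96 in rho0, -0.13 in PKO and 1.42 between the clones.

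*Timp2*, which inhibits MMPs and also joins MMP14 in activating proMMP2, was at 31927, 32659.6 and 30216 normalized counts in TM6, 31549.7, 27140.3 and 27716 in rho0, 47581, 46659 and 47492 in PKO-1 and 35163, 39375 and 33166 in PKO-6. PKO-1 was above all other lines, and TM6 and rho0 overlapped. It was called higher in PKO than in rho0 (log2 fold change 0.53 ± 0.13 (SE), adjusted p = 0.00831), but 13 of 21 alternative fits lost this call, 10 of them by leaving out 1 library and 1 with the replicate number as a block (adjusted p = 0.0206). *Timp4* was not tested and had 1 count in each of 2 PKO-6 libraries.

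**Figure D5:**
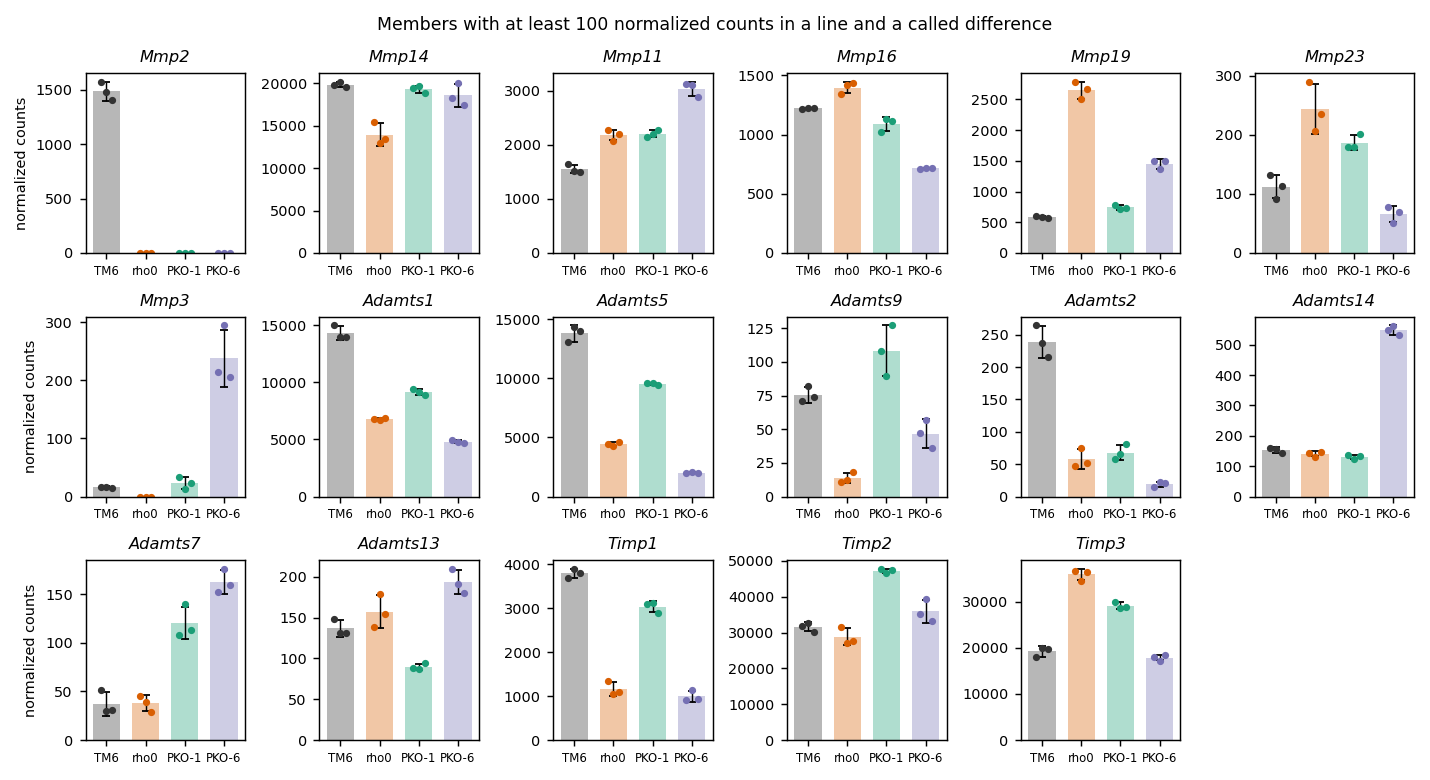
Normalized counts of the 17 members that reached a mean of 100 in a line and were called in at least 1 comparison; bars are means, error bars SD, and points the 3 cultures of each line, on linear axes that start at 0. *Mmp2*, *Adamts1*, *Adamts5*, *Adamts2* and *Timp1* are highest in TM6, *Mmp19* and *Timp3* in rho0, *Timp2* and *Adamts9* in PKO-1, and *Mmp3*, *Mmp11*, *Adamts7* and *Adamts14* in PKO-6.

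Seen across the lines, the levels of many members differed between PKO-1 and PKO-6. Of the 15 called members (beside 29.1% of all tested genes), the 8 that were higher in PKO-1 were *Adamts5*, *Adamts2*, *Timp1*, *Mmp23*, *Adamts9*, *Adamts1*, *Timp3* and *Mmp16*, with log2 fold changes from 2.24 down to 0.61. The 7 that were higher in PKO-6 were *Mmp3*, *Mmp25*, *Mmp13*, *Adamts14*, *Mmp24*, *Adamts13* and *Mmp19*, with log2 fold changes of PKO-1 against PKO-6 from -3.36 to -0.97. In 5 tested proteoglycan-cleaving ADAMTS genes, 3 were higher in PKO-1 (*Adamts1*, *Adamts5* and *Adamts9*), beside 11.5% of all tested genes.

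Genes that act on or beside the members were counted in 4 lists, to be read beside the shares of all tested genes, of which 13.7% rose and 15.6% fell in rho0 and 13.5% rose and 12.2% fell in PKO, and beside their median log2 fold changes of 0.018 in rho0 and 0.029 in PKO. Of 17 genes that activate or restrain MMPs, 12 were tested; 2 rose and 4 fell in rho0 (median log2 fold change -0.36), and 2 rose and 3 fell in PKO (median -0.27). *Plat*, tissue plasminogen activator, fell from 1856 ± 68.6 normalized counts in TM6 to 133 ± 27.3 in rho0 (log2 fold change -3.80 ± 0.51 (SE), adjusted p = 1.00e-04), 363 ± 36.4 in PKO-1 and 129 ± 29.4 in PKO-6 (PKO: log2 fold change -2.92 ± 0.38 (SE), adjusted p = 7.51e-05). *Plaur*, the urokinase receptor, rose by 0.92 on the log2 scale in rho0 and by 1.05 in PKO. *Furin*, which activates several proMMPs and proADAMTS, fell in rho0 by 0.69 on the log2 scale and was not called in PKO (adjusted p = 0.0103).

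Of 11 ADAM and tolloid proteinases, 10 were tested; 5 fell in rho0 and 4 in PKO (medians -0.71 and -0.35). They included *Tll1*, at 369 ± 46.5 normalized counts in TM6, 23.5 ± 4.97 in rho0, 54.6 ± 4.58 in PKO-1 and 16.98 ± 2.79 in PKO-6, and *Bmp1*, at 5772 ± 632, 2901 ± 118, 3603 ± 441 and 4009 ± 219, which both encode procollagen C-proteinases of the tolloid family. *Adam12* fell by 1.98 on the log2 scale in rho0 and fell by 1.90 in PKO, and *Adam15* fell by 0.73 in rho0. Of the 7 ADAMTS-like genes, whose products have ADAMTS domains without the protease, 6 were tested; 1 rose and 1 fell in rho0, and 1 fell in PKO (medians -0.25 and 0.40). The one that fell in both was *Adamtsl4*, at 2352 ± 165 normalized counts in TM6 and 559 to 1133 on average in the other lines, and the one that rose in rho0 was *Adamtsl5*, by 1.30 on the log2 scale.

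Of 14 genes for substrates, 12 were tested; 1 rose and 3 fell in rho0, and 2 rose and 3 fell in PKO (medians -0.12 and 0.15). *Bgn*, the small proteoglycan biglycan, fell from 23491 ± 690.0 normalized counts in TM6 to 3904 ± 389 in rho0 (log2 fold change -2.59 ± 0.61 (SE), adjusted p = 0.00437), 270.4 ± 10.8 in PKO-1 and 51.7 ± 6.42 in PKO-6 (PKO: log2 fold change -7.20 ± 0.57 (SE), adjusted p = 1.63e-06). *Fn1*, fibronectin, rose by 1.07 on the log2 scale in rho0 and by 1.05 in PKO, and *Nid1*, the basement membrane protein nidogen, fell by 1.08 in PKO. *Dcn*, decorin, fell in rho0 by 1.62 on the log2 scale and rose in PKO by 2.70, from 25.3 ± 5.04 normalized counts in TM6 to 183 ± 32.9 in PKO-1 and 147 ± 30.1 in PKO-6. *Vcan*, versican, the substrate of several proteinases above, had 3059 to 4674 normalized counts on average in the lines and was not called in rho0 or PKO against TM6; it and *Comp* were named after their values had been seen.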

How the data were processed

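Total RNA of 12 cultures, 3 per line, was depleted of ribosomal RNA and sequenced strand-specifically in technical duplicates that the authors merged. The deposited expected counts (estimated counts, not normalized) and TPM were made by the authors with RSEM 1.2.25 and Bowtie2 on RefSeq transcripts of mm10 (GRCm38); the submitters' processing notes also name bcl2fastq and DESeq2 1.18.1. Whether counting used the strand is not given in the sources used here. In the gene table, decimals were present in 12.5% of values, and counts were rounded. Groups came from the labels. In R 4.3.3, edgeR 4.0.16 tested genes that passed filterByExpr (minimum count 10) with TMM and the quasi-likelihood test, adjusted by Benjamini-Hochberg over all 14026 tested genes; the standard error is the log2 fold change divided by the square root of F. The study's methods name DESeq2's Wald test, which was run as an alternative with DESeq2 1.42.0. TPM were summed over transcripts per gene. The scripts were tested on simulated data. Ratios with 1 to 3 counts carry exact 95% intervals, which like the floor of 3 counts cover counting error only. Members and lists were chosen with earlier results of these data known. Full statistics are given for members whose mean reached 100 normalized counts in a line and a call in at least 1 of 4 comparisons, other called members by their counts, and at most 4 called genes of each further list by the size of their change. Alternatives were other scaling, filter, test, thresholds and fits, a replicate block, chromosome medians, and each library left out in turn. One called gene of these lists is not reported here by name. Protein sequences were not used here.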

Additional observations from a re-analysis of the deposited data

Results flagged for a closer look

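The change against TM6 differed between the 2 PKO clones in 15 of 30 tested members (50%, beside 29.1% of all tested genes), tested as PKO-1 minus PKO-6 in the fit of 4 lines. The difference in log2 fold change was 2.24 in *Adamts5*, 1.83 in *Adamts2*, 1.60 in *Timp1*, 1.50 in *Mmp23*, 1.21 in *Adamts9*, 0.94 in *Adamts1*, 0.71 in *Timp3* and 0.61 in *Mmp16*. It was -3.36 in *Mmp3*, -2.76 in *Mmp25*, -2.26 in *Mmp13*, -2.06 in *Adamts14*, -1.24 in *Mmp24*, -1.11 in *Adamts13* and -0.97 in *Mmp19*. In *Mmp23* and *Adamts13* both clones were called against TM6 with opposite signs, at 0.73 in PKO-1 and -0.77 in PKO-6 for *Mmp23* and at -0.61 and 0.50 for *Adamts13*. With the clones pooled both lay near 0, at 0.17 and 0.05. The call of *Adamts13* in PKO-6 was just past the threshold of size. It was lost, at 0.47, with TM6 and PKO-6 fitted by themselves.

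One library stood apart from the other 5 PKO libraries in *Mmp28*. PKO-6 replicate 2 had 175 normalized counts, and its gap to the next library was 0.719 of the range of the 6. Chance flags about 1 in 20 groups, and every tested member whose PKO libraries were not all equal was screened. These libraries come from 2 clones, for which that rate need not hold. The exons of *Mmp28* overlap a gene on the opposite strand, and the part of this in the value was not tested.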

How the results depend on the processing

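Of 36 calls of named members, 26 kept their direction and their call in every alternative fit, and 10 lost the call in at least 1. The 26 included *Mmp2*, *Adamts15*, *Adamts18*, *Adamts9* and *Mmp19* in rho0 against TM6 and *Mmp2*, *Adamts2*, *Adamts7* and *Mmp11* in PKO against TM6. These fits kept the main thresholds, and other thresholds were applied only to counts of called members. *Mmp11* in PKO lies below an absolute log2 fold change of 1. At that threshold, 6 members were called in rho0 against TM6 (20%, beside 14.6%) and 6 in PKO against TM6 (20%, beside 12.7%). PKO against rho0 then gave 5 (16.7%, beside 4.76%) and the clones 11 (36.7%, beside 13.9%). Leaving out 1 library gave 5 to 10 called members in rho0 against TM6 (8 with all), 6 to 9 in PKO against TM6 (7), 1 to 6 in PKO against rho0 (6) and 15 to 17 between the clones (15). The low counts came without TM6 replicate 2 or rho0 replicate 2 (5 in rho0 against TM6), without rho0 replicate 2 (1 in PKO against rho0) and without rho0 replicate 3 (2). The call of *Mmp3* in PKO against rho0 was lost without any 1 rho0 library, that of *Mmp19* without rho0 replicate 2 or 3, and that of *Mmp13* in 10 of 21 alternatives. Counts are set beside the share of all tested genes called by the same alternative. In rho0 against TM6, DESeq2's Wald test called 13 members (43.3%, beside 33.6%), a fit of the compared lines only 16 (55.2%, beside 41.6%), the fit of 4 lines 16 (53.3%, beside 42.1%), and an adjusted p below 0.05 with no threshold of size 18 (60%, beside 51.1%). For PKO against TM6 these were 11 by the Wald test (36.7%, beside 28.7%), 15 with 4 lines (50%, beside 35%) and 14 at 0.05 (46.7%, beside 48.2%), while PKO-1 by itself gave 15 (50%, beside 34.3%) and PKO-6 by itself 19 (63.3%, beside 41.3%). For PKO against rho0 they were 3 in a fit of the compared lines only (11.5%, beside 8.05%), 14 with 4 lines (46.7%, beside 23.7%), 11 at 0.05 (36.7%, beside 32.7%), 11 with PKO-1 (36.7%, beside 32.7%) and 13 with PKO-6 by itself (43.3%, beside 21.5%). Of the further lists, 17 genes were called in rho0 and 15 in PKO against TM6; these became 26 with 4 lines and 10 above an absolute log2 fold change of 1 in rho0, and 23 with PKO-1 and 24 with PKO-6 by itself in PKO. The cause was not tested, beyond fewer or other libraries entering a fit.

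The labels do not say that replicate numbers mark a shared batch or day. Correlations of same-numbered libraries ranged from -0.39 to 0.25; they were above 0.1 in all 3 pairs for TM6 and PKO-6 and in no other pair of lines. With the replicate number as a block, PKO against rho0 gave 3 called members (10%, beside 7.82%) in place of 6, losing *Mmp3*, *Mmp13* and *Timp2*, rho0 against TM6 gave 6 in place of 8, losing *Adamts1* and *Timp3*, and PKO against TM6 gave 6 in place of 7, losing *Adamts1*. The difference between the clones gave 15 with and without it. For TM6 and PKO-6, fitted by themselves after the correlations were seen, the block gave 20 called members (66.7%, beside 43.4%) and no block 18 (60%, beside 42.1%); *Adamts4* and *Mmp24* were called with the block alone.

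Signs turned in 14 results for a member and comparison. With PKO-6 alone against TM6, the log2 fold change was -0.77 for *Mmp23*, -0.69 for *Adamts9* and -0.11 for *Timp3*; with PKO-1 alone it was -0.61 for *Adamts13*, -0.22 for *Adamts14* and -0.41 for *Mmp25*. With 4 lines it was -0.018 for *Mmp23*, -0.087 for *Adamts9* and -0.052 for *Adamts13*, and with chromosome medians removed -0.14 for *Adamts9*. Against rho0, PKO-6 alone gave -0.51 for *Adamts1*, -1.15 for *Adamts5*, 0.30 for *Adamts13* and -0.22 for *Timp1*; PKO-1 alone gave -0.84 for *Mmp25*, 0.24 for *Adamts2* and -0.10 for *Adamts14*; and 4 lines gave -0.038 for *Adamts1* and -0.023 for *Adamts5*. The Wald test gave -0.21 for *Adamts18*. With 1 library left out, results that turned ranged from -0.016 to 0.30 (*Mmp23*), -0.16 to 0.18 (*Adamts9*) and -0.090 to 0.16 (*Adamts13*) in PKO against TM6 and from -0.068 to 0.13 (*Adamts1*) in PKO against rho0.

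Without *Rn45s* in the total, 20 of 88 TPM values of named members moved by more than 1 SD of the replicates.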
